A study of Homo sapiens with 16 samples.

Results

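The comparison set NCI-H1944 cells labelled as lacking both STING and MAVS against cells labelled as lacking MAVS alone, after a pulse of an MPS1 inhibitor, and so shows which transcripts differed with the STING label on a MAVS knockout background. Its members are 4 of the 16 libraries of the series, 2 of the double knockout (DKO) and 2 of the MAVS knockout (MAVS), taken by their labels and described over the 17950 genes that passed a filter on low counts. NCI-H1944 is an established human lung adenocarcinoma line. MPS1i is BAY-1217389, given at 100 nM for 48 h, after which the drug was removed and the cells grew for another 24 h. The vehicle, DMSO, followed the same schedule. Both sides of the main comparison carry the MAVS knockout label, and both had the inhibitor. The other lines are a control guide (SCR) and a STING knockout (STING), each with DMSO and MPS1i and 2 libraries a group. Whether each knockout line is 1 clone or a pool of cells, and whether the 2 libraries of a group came from separate cultures, is not given in the sources used here, so the p-values reflect only how much these libraries scatter, which may be technical in part or whole.

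MPS1, encoded by TTK, is the kinase of the spindle checkpoint, and its inhibition lets cells divide with mis-segregated chromosomes that can end up in micronuclei. DNA in the cytosol is read by cGAS, whose product activates STING. STING recruits TBK1, which activates IRF3, and it also activates NF-kB. Double-stranded RNA is read by RIG-I and MDA5, which signal through MAVS to the same kinases. Both routes induce type I and type III interferons, which act through JAK kinases and IRF9 on genes that carry an interferon-stimulated response element.

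The promoters of genes with the largest differences are printed here because the response element can be read in them. Of the 12 genes with the largest falls, 9 have an entry in the RefSeq promoter table (GRCh38.p14), which holds 250 bases before and 50 after a start, and the first 6 were searched. The motif was GAAA, any 2 bases, GAAA, the core of the response element, on both strands. Capitals mark each match, which reads TTTC, any 2 bases, TTTC where it lies on the other strand. All stretches lie upstream of the start and are written 5′ to 3′ in the direction of the gene.
RSAD2, plus strand, chr2:6877617-6877656: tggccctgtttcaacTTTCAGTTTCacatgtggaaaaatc
IFIT1, plus strand, chr10:89392492-89392544: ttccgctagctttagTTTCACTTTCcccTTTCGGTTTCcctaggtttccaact
IFI6, minus strand, chr1:27672261-27672363: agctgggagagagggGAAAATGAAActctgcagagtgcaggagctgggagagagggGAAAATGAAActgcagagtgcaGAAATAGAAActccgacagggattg
CXCL10, minus strand, chr4:76023694-76023733: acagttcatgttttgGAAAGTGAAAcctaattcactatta
HERC5, plus strand, chr4:88456979-88457069: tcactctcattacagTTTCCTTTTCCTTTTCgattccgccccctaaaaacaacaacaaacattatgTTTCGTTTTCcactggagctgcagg
IFIT1 holds 2 matches, and IFI6 and HERC5 hold 3 each, of which 2 overlap in HERC5. RSAD2 holds 1 match in 1 of its 2 windows, and the windows of XAF1 hold none.

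The motif was more frequent in the promoters of the interferon-stimulated genes than over the whole table. It stood in 4.38% of the 27305 genes of the promoter table, and in 35 of the 50 interferon-stimulated genes with an entry (70%). It was in 11 of 16 class I presentation genes (68.8%) and in 28.7% of the 310 genes with an entry that were at least 2-fold lower in DKO. The lower set includes most genes of both lists, so its share is no separate observation. Of the 91 genes with an entry that were at least 2-fold higher, 5.49% held the motif. Among inflammatory cytokines it was in 2 of 14 (14.3%), and among 35 mitosis genes in none. A second motif, GGG, any 4 bases, TCC, resembles the site of NF-kB and was in 25.9% of all genes of the table, searched in the same way, and in 32.6% of the 11881 tested genes with an entry. It was in 8 of 14 inflammatory cytokines (57.1%), in 14 of 21 NF-kB genes (66.7%) and in 14 of 50 interferon-stimulated genes (28%). These shares describe letters in a fixed window, and a match is no evidence of binding.

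The libraries of the comparison held 33611396 and 38165853 counts (MAVS) and 33601232 and 20635229 counts (DKO), and the 16 libraries ranged from 19893784 to 49769938. Values are CPM, counts scaled to the normalised total of the library, and differences are log2 fold changes of DKO minus MAVS with their standard error (SE). A gene is called where the adjusted p of edgeR's quasi-likelihood test is under 0.05. Of the epithelial markers, KRT8, KRT18 and KRT7 were abundant, while NKX2-1, SFTPB, SFTPC and KRT19 had at most 3 counts in any of the 4 libraries. Of 14 immune cell markers 6 had no count in any of the 4 libraries, and the summed level of all 14 was 8.01 to 8.16 CPM in MAVS and 8.46 to 8.59 CPM in DKO.

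STING1, the targeted gene, was read at 17.2 and 19.9 CPM in the MAVS libraries after MPS1i and at 4.04 and 4.21 CPM in DKO. Both DKO libraries were below both MAVS libraries, with a log2 fold change of -2.18 ± 0.11 (SE; edgeR adjusted p = 1.21e-14). Under DMSO STING1 was read at 10.0 and 10.8 CPM in MAVS and at 4.9 and 4.83 CPM in DKO (-1.09 ± 0.11). With the pulse it rose in MAVS, by 0.84 ± 0.095, and its change in DKO was not called (-0.24 ± 0.12). The difference after MPS1i thus also holds a pulse effect, and loss of the STING protein was not checked here. MAVS was read at 153 and 150 CPM in MAVS and at 186 and 191 CPM in DKO. That small difference of 0.32 ± 0.045 (edgeR adjusted p = 4.83e-06) does not check the MAVS label, since a guide can disrupt a protein and leave its transcript in place. The transcript was not lower in MAVS than in SCR, where it was read at 120.7 and 118.6 CPM after MPS1i, so loss of the protein was not checked here.

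After the pulse, 4909 genes were called, 27.3% of those tested. DKO was lower in 2551 of them (14.2% of the genes tested) and higher in 2358 (13.1%). At 2-fold or more the balance was uneven, with 492 genes lower (2.74%) and 160 higher (0.891%). Calls made up 31.8% of protein-coding genes and 10.9% of lncRNA genes. The share of lower genes among all calls was 52%, and it was 39.2% of 5167 calls with upper quartile normalisation.

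**Figure D1:**
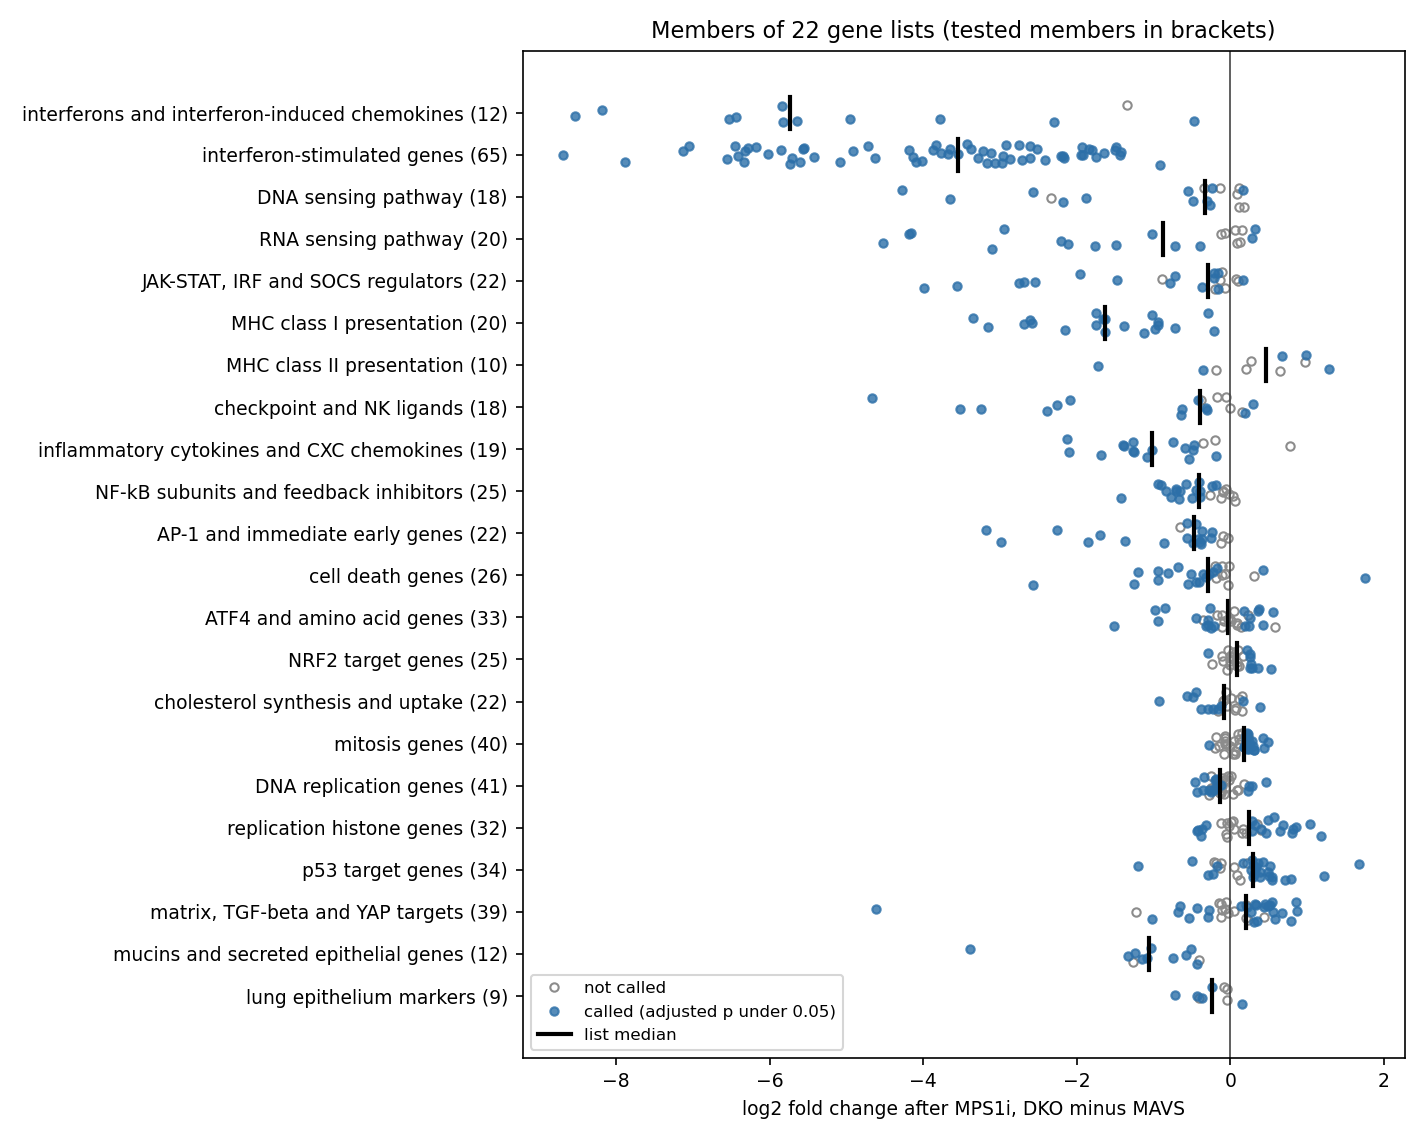
Log2 fold change after MPS1i (x axis, DKO minus MAVS) of each tested member of 22 gene lists (y axis), with filled points for called genes, open points for others and a bar at the list median. All 65 interferon-stimulated genes lie left of 0, with a median of -3.54, while the mitosis genes lie around 0.18.

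Interferons and the chemokines they induce stood at the top of the order. Of 12 tested members 11 were lower in DKO, against 14.2% of all tested genes. IFNL1, a type III interferon, had 42 and 64 counts in the MAVS libraries and none in either DKO library. Against a floor of 3 counts per library, its level was at least 12.8-fold lower in DKO. IFNL2 had 43 and 40 counts in MAVS and none in DKO, at least 10.2-fold lower. IFNB1, the type I interferon made by most cells, was near the limit of detection, with 6 and 8 counts in MAVS and none in DKO. Its call was lost without DKO replicate 1 (edgeR adjusted p = 0.0848). The median log2 fold change of the list was -5.73, or -3.73 with the 3 genes at 0 in DKO set to their bound, against -0.00163 for all tested genes.

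CCL5, a chemokine for T cells, was read at 234 and 238 CPM in MAVS and at 4.21 and 3.97 CPM in DKO. The groups were far apart, by -5.84 ± 0.079 (edgeR adjusted p = 1.87e-26). CXCL10, a ligand of CXCR3, was read at 5.63 and 5.12 CPM in MAVS, and at 0 and 0.142 CPM in DKO. Only 1 DKO library had any CXCL10 count. TNFSF10, which encodes the death ligand TRAIL, was read at 65.2 and 64.3 CPM in MAVS and at 5.05 and 4.16 CPM in DKO, also without overlap (-3.79 ± 0.095, edgeR adjusted p = 4.72e-21).

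The interferon-stimulated genes were lower in DKO without exception among the 65 listed, and 64 of them were at least 2-fold lower. Over all tested genes these shares were 14.2% and 2.74%. The list was chosen with earlier results of these data known, so its count is a description. The range ran from -8.70 for MX2 to -0.91 for IFITM2, and 27 were at least 16-fold lower. IFIT1, which binds viral RNA lacking a host cap, was read at 1010 and 951 CPM in MAVS and at 6.74 and 7.38 CPM in DKO. Every MAVS library was above every DKO library by more than 100-fold, with a log2 fold change of -7.13 ± 0.12 (edgeR adjusted p = 3.03e-14). MX1, a GTPase that blocks viruses, was read at 1438 and 1413 CPM in MAVS and at 15.1 and 18.8 CPM in DKO. ISG15, a ubiquitin-like protein, was read at 313 and 322 CPM in MAVS and at 9.24 and 9.6 CPM in DKO. ADAR, which edits double-stranded RNA and has a constitutive form, differed less, with 1553 and 1572 CPM in MAVS against 561 and 553 CPM in DKO (-1.49 ± 0.04, edgeR adjusted p = 2e-20). RP11-326C3.17, among the 12 largest falls, overlaps IFITM1 and IFITM2 on the same strand (chr11:308408-315272), so its reads may be shared with them.

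**Figure D2:**
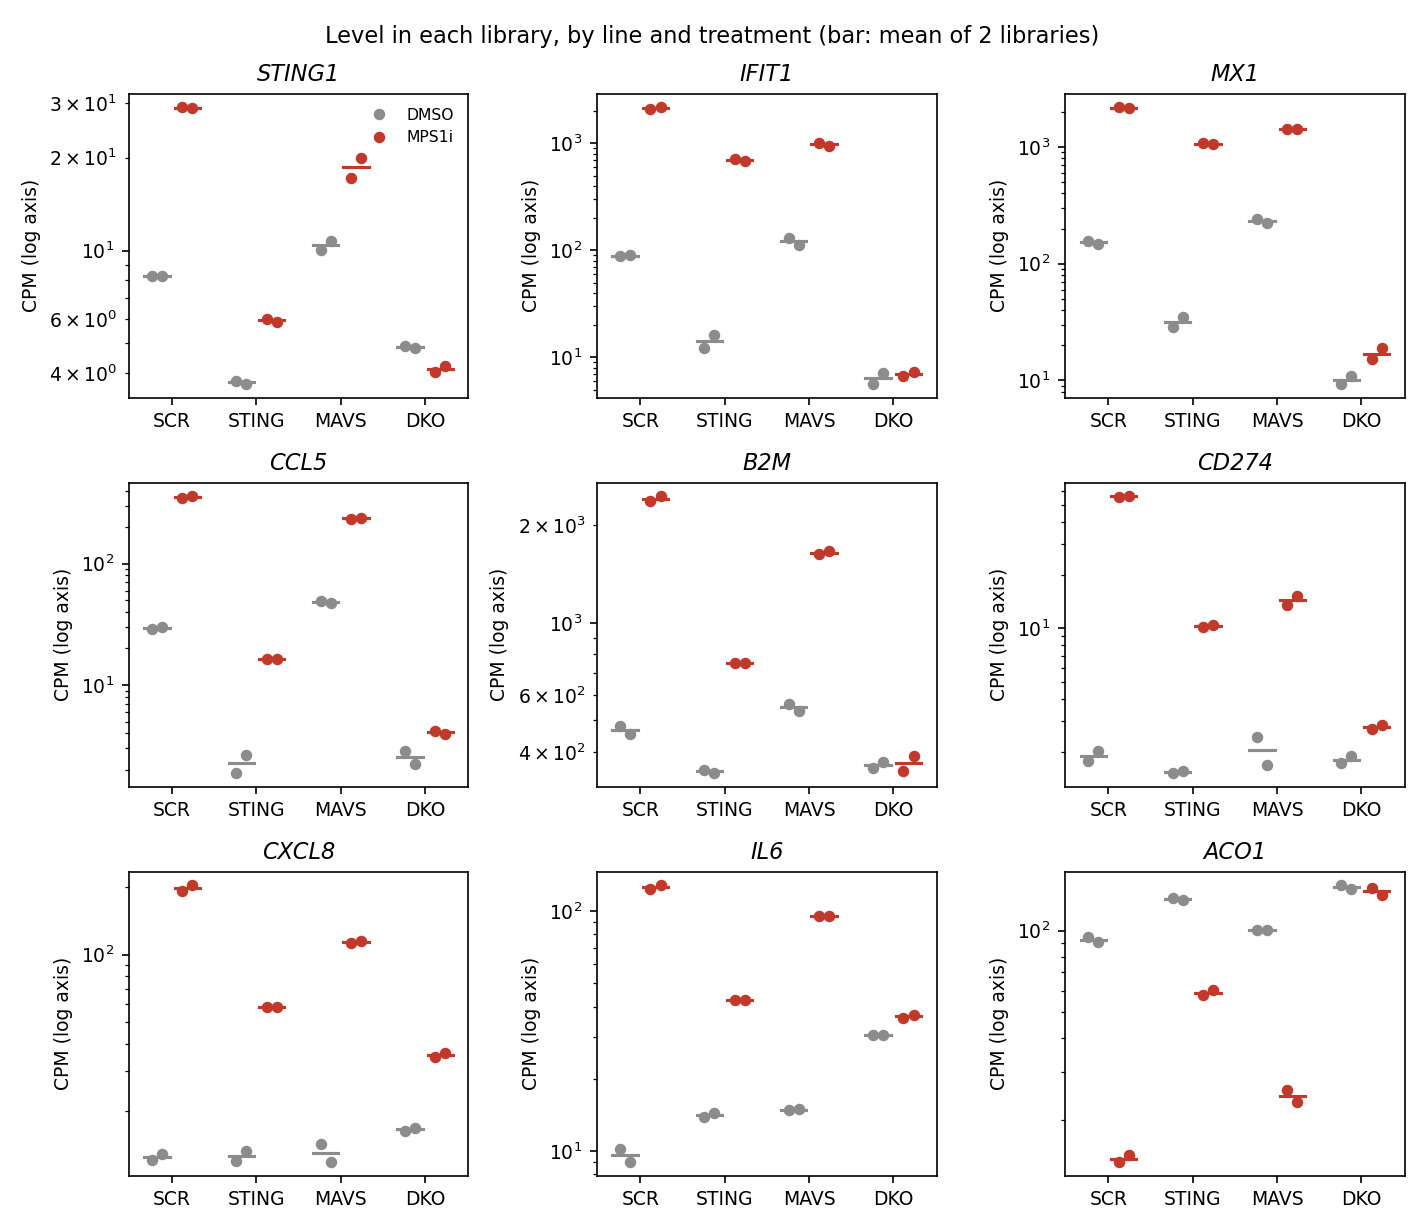
Level in each library (points, CPM on a log axis) of 9 genes in the 4 lines (x axis) with DMSO or MPS1i, with a bar at the mean of 2 libraries. IFIT1 after MPS1i lies at 951 to 1010 CPM in MAVS and at 6.74 to 7.38 CPM in DKO, while CXCL8 in DKO lies at 34.6 to 36.3 CPM, above its DMSO level.

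The sensors of nucleic acid were themselves among the lower genes. Over all tested genes 14.2% were lower and 13.1% higher. For RNA sensing, 12 of 20 members were lower and 2 higher. DDX58, which encodes RIG-I, was read at 732 and 712 CPM in MAVS and at 42.4 and 37.8 CPM in DKO (-4.16 ± 0.07, edgeR adjusted p = 1.14e-22). IFIH1, which encodes MDA5, was read at 382 and 366 CPM in MAVS and at 15.5 and 17.4 CPM in DKO. Neither gene overlapped between the groups. For DNA sensing, 10 of 18 members were lower and 1 was higher. Without DKO replicate 1 the number lower was 6, and without any 1 of the 4 libraries none was higher. SAMHD1, a dNTP hydrolase, and IFI16, a nuclear DNA sensor, were lower by -3.65 and -2.58. CGAS was read at 52.5 and 47 CPM in MAVS and at 40.8 and 39.6 CPM in DKO (-0.31 ± 0.08, edgeR adjusted p = 0.00542). That call was lost without MAVS replicate 1 (edgeR adjusted p = 0.121) and without DKO replicate 2 (0.0583). The kinase gene TBK1 and its substrate gene IRF3 were lower by only -0.24 and -0.27.

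Of 22 genes that carry or regulate interferon signals, 14 were lower and 1, JAK1, was higher. With DESeq2 12 were lower, and over all tested genes 14.2% were lower and 13.1% higher. IRF7, a factor that amplifies interferon production, was read at 34.9 and 37.6 CPM in MAVS and at 2.24 and 2.37 CPM in DKO. IRF1 was read at 43.6 and 44.6 CPM in MAVS and at 16.5 and 15.1 CPM in DKO. Both genes were lower in each DKO library than in either MAVS library. IFNAR1, a chain of the type I receptor, had a difference of 0.08 and was not called, whereas IFNLR1, the specific chain of the type III receptor, was lower by -0.79.

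Class I antigen presentation was lower as a group. All 20 tested members were called lower, with a median of -1.63, and 14 were at least 2-fold lower. The shares over all tested genes were 14.2% and 2.74%. B2M, the light chain of class I molecules, was read at 1629 and 1662 CPM in MAVS and at 349 and 389 CPM in DKO (-2.16 ± 0.051, edgeR adjusted p = 9.85e-22). HLA-B was read at 131 and 134 CPM in MAVS and at 20.3 and 21 CPM in DKO (-2.69 ± 0.07, edgeR adjusted p = 1.15e-20). The groups did not overlap for either gene. The peptide transporter gene TAP1, the immunoproteasome gene PSMB9 and NLRC5, the activator of class I genes, were lower by -2.59, -3.15 and -2.61. Class I genes are alike in sequence, and how reads mapping to several of them were counted is not given in the sources used here.

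Class II genes did not share that direction. Of 10 tested members 2 were lower and 3 higher, against 14.2% lower and 13.1% higher over all tested genes. With so few members these counts give no direction for the list. Under DMSO 5 of the 10 were higher in DKO and 0 lower. HLA-DRA, read at 4.26 and 4.52 CPM in MAVS and at 9.47 and 7.8 CPM in DKO, was higher by 0.99 ± 0.15 (edgeR adjusted p = 1.15e-05). Of the checkpoint and NK cell ligands, 11 of 18 were lower and 2 higher (9 and 1 with DESeq2), beside the same shares over all tested genes. CD274, which encodes PD-L1, was read at 13.6 and 15.3 CPM in MAVS and at 2.7 and 2.84 CPM in DKO (-2.39 ± 0.12, edgeR adjusted p = 3.48e-14). LGALS9, which encodes galectin-9, was lower by -4.66, and PVR and ULBP1, ligands of NK cell receptors, had differences of 0.19 and 0.30. Those 2 positive calls were both lost without MAVS replicate 1, without DKO replicate 1 and without DKO replicate 2.

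Inflammatory cytokines and the NF-kB genes were lower by smaller amounts. Of 19 cytokines and CXC chemokines 16 were lower (13 with DESeq2), against 14.2% of all tested genes. Their median was -1.03, or -0.83 without DKO replicate 1. CXCL8, which draws neutrophils, was read at 112 and 115 CPM in MAVS and at 34.6 and 36.3 CPM in DKO (-1.68 ± 0.064, edgeR adjusted p = 4.02e-17). IL6 was read at 95.6 and 95.3 CPM in MAVS and at 35.9 and 36.9 CPM in DKO (-1.39 ± 0.059, edgeR adjusted p = 4.98e-16). Both genes separated the groups, but DKO kept clear levels of each. Of 25 NF-kB subunits and inhibitors 17 were lower and none higher, with a median of -0.41. TNFAIP3, which encodes the feedback inhibitor A20, was read at 133 and 136 CPM in MAVS and at 49.7 and 50.6 CPM in DKO. SOD2, the mitochondrial superoxide dismutase, was read at 1292 and 1229 CPM in MAVS and at 804 and 800 CPM in DKO.

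Immediate early genes were lower in 18 of 22 cases, with a median of -0.47. EGR1 was read at 36 and 36.4 CPM in MAVS and at 4.71 and 4.4 CPM in DKO (-2.98 ± 0.12, edgeR adjusted p = 2.37e-16). MYC had a difference of -0.03 and was not called. Of 26 cell death genes 16 were lower and 2 higher. For both lists the shares over all tested genes were 14.2% lower and 13.1% higher. CASP1, the inflammatory caspase, was lower by -2.57 and MLKL, the effector of necroptosis, by -1.26. The decoy TRAIL receptor gene TNFRSF10D was higher, with 26.1 and 27.2 CPM in MAVS and 88 and 91.8 CPM in DKO (1.75 ± 0.074, edgeR adjusted p = 4.33e-16).

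Of the 160 genes at least 2-fold higher in DKO, 6 were members of the lists. ACO1, which encodes the cytosolic aconitase that doubles as an iron regulatory protein, was the gene with the largest called rise among those of at least 1 CPM. It was read at 25.7 and 23.2 CPM in MAVS and at 144 and 135 CPM in DKO (2.51 ± 0.059, edgeR adjusted p = 9.69e-22). Its DMSO levels were 100 and 101 CPM in MAVS and 147 and 142 CPM in DKO, so the MAVS libraries after MPS1i are the low ones. Of 34 p53 target genes 21 were higher and 5 lower, with a median of 0.29, and the number lower was 2 without MAVS replicate 2 and 3 without DKO replicate 1. For comparison, 13.1% of all tested genes were higher and 14.2% lower. ZMAT3, an RNA-binding p53 target, was read at 42.6 and 40.2 CPM in MAVS and at 130 and 135 CPM in DKO (1.68 ± 0.054, edgeR adjusted p = 1.06e-18). CDKN1A, which encodes p21, was higher by 0.39, whereas PMAIP1, which encodes NOXA, was lower by -1.20.

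Proliferation genes differed little. The list counts here stand beside 14.2% of all tested genes lower and 13.1% higher. MKI67 was read at 475 and 506 CPM in MAVS and at 472 and 485 CPM in DKO, and these ranges overlapped (-0.04 ± 0.047, edgeR adjusted p = 0.625). TTK, the gene of the inhibited kinase, was not called either (-0.08 ± 0.075). Of 40 mitosis genes 19 were higher and 1 lower, with a median of 0.18, and the number higher was 9 without MAVS replicate 2 and 12 without any 1 of the other libraries of the comparison. Of 41 DNA replication genes 11 were lower and 4 higher, the latter no more than the 13.1% over all tested genes. The number lower was 7 without MAVS replicate 1 or DKO replicate 1, 6 without MAVS replicate 2 and 5 without DKO replicate 2, and it was 7 with upper quartile normalisation. Replication histone genes were higher in 14 of 32 cases and lower in 5, or 3 without MAVS replicate 2. H4C2 was the furthest, with 16.3 and 19.3 CPM in MAVS and 40 and 40.8 CPM in DKO. The libraries were enriched for poly(A), which most replication histone transcripts lack, and the histone genes are near-identical copies, so these values are uncertain.

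Epithelial and matrix genes split. Beside the list counts here, 14.2% of all tested genes were lower and 13.1% higher. Of 12 mucins and secreted epithelial genes 10 were lower (9 with DESeq2), with a median of -1.06. MUC5AC, a gel-forming airway mucin, was read at 60.8 and 66.5 CPM in MAVS and at 29.9 and 30.1 CPM in DKO. Of 39 matrix, TGF-beta and YAP genes 18 were higher and 8 lower. FN1, which encodes fibronectin, was higher, with 112 and 122 CPM in MAVS and 177 and 172 CPM in DKO. Metabolic lists showed mixed counts, with 11 of 33 ATF4 and amino acid genes lower and 8 higher, and 7 lower without DKO replicate 2. For NRF2 targets 1 of 25 was lower and 8 were higher, and for cholesterol genes 9 of 22 were lower and 2 higher, the latter 1 without DKO replicate 2 and 0 without any 1 of the other libraries of the comparison. The median of the ATF4 list was -0.03 and turned to 0.018 with upper quartile normalisation.

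The same genotypes under DMSO, in 4 other libraries, show how much of the difference was there without the pulse. Under DMSO 2897 genes were called (16.1%), 1474 lower (8.21%) and 1423 higher (7.93%) in DKO. The total was 1761 without MAVS DMSO replicate 1, 1797 without MAVS DMSO replicate 2 and 1469 with these groups fitted alone. Of the 2551 genes lower after MPS1i, 811 were also lower under DMSO, which is 31.8% of the first set and 55% of the second. A further 1651 were not called under DMSO and 89 were higher there. Of the 2358 genes higher after the pulse, 764 were also higher under DMSO (32.4% and 53.7% of the respective sets). Over the 13921 genes of at least 1 CPM the 2 sets of log2 fold changes had a Pearson r of 0.58 and a Spearman rho of 0.44. This is a correlation across genes, which are not independent replicates, and each axis has its own libraries.

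**Figure D3:**
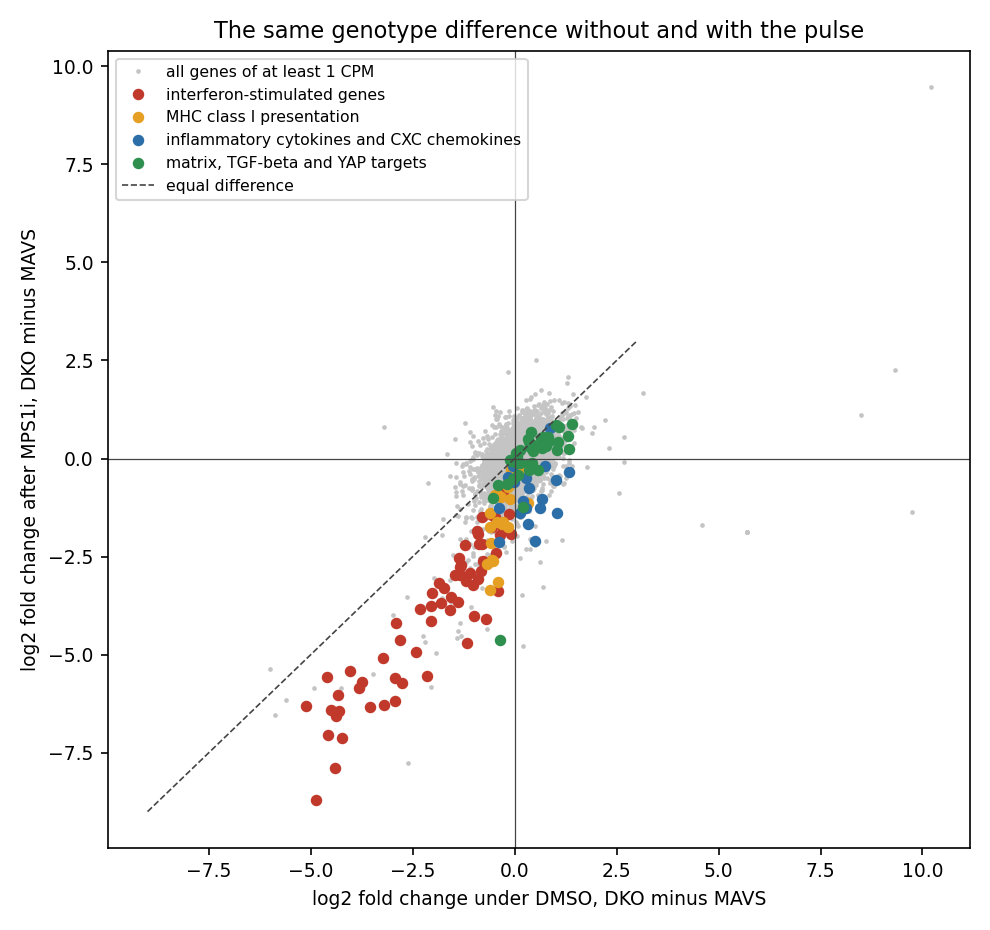
Log2 fold change of DKO minus MAVS under DMSO (x axis) and after MPS1i (y axis) for genes of at least 1 CPM (grey) and 4 lists (colours), with a dashed line of equal difference. Interferon-stimulated genes lie below 0 on both axes and below the line, with medians of -1.45 and -3.54, while cytokines lie at 0.33 under DMSO and at -1.03 after MPS1i. Isolated grey points far to the right were not called under DMSO.

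The lists differed in how many of their lower genes were already lower under DMSO. Of all genes lower after MPS1i, 31.8% were also lower under DMSO and 3.49% were higher there. Of the 65 interferon-stimulated genes 61 were lower under DMSO as well. IFIT1 under DMSO was read at 132 and 111 CPM in MAVS and at 5.66 and 7.08 CPM in DKO, and the difference there was -4.24 ± 0.12. In 62 of the 65, both DKO libraries after MPS1i were below both MAVS libraries under DMSO. The same count was not made over all tested genes, so how unusual it is cannot be judged here. Of the 19 cytokines 3 were higher in DKO under DMSO, 1 was lower and 15 were not called. Over all tested genes 7.93% were higher and 8.21% lower, and so few cytokine calls give no direction for that list under DMSO. IL6 under DMSO was read at 14.8 and 15 CPM in MAVS and at 30.4 and 30.6 CPM in DKO (1.03 ± 0.07, edgeR adjusted p = 3.63e-11). IL6 was thus higher in DKO under DMSO and lower after MPS1i. Of the 17 lower NF-kB genes 1 was lower under DMSO and 4 were higher, and of the 20 class I genes 13 were lower under DMSO and 1 was higher.

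The effect of the pulse itself can be set side by side in the 2 lines. MPS1i changed 6001 genes in MAVS (33.4%), 3074 higher (17.1%) and 2927 lower (16.3%). It changed 2648 in DKO (14.8%), 1173 higher (6.53%) and 1475 lower (8.22%). The total in DKO was 1433 without its MPS1i replicate 1, 1682 without its MPS1i replicate 2 and 1629 with these groups fitted alone. These counts share libraries with the comparisons above. Relative to sampling noise, the 2 DKO DMSO libraries differed from each other more than those of any other group. A test of the difference between the 2 effects called 2043 genes (11.4%), 1150 with a lower effect in DKO (6.41%) and 893 with a higher one (4.97%). Among the interferon-stimulated genes 65 were induced in MAVS against 16 in DKO, where 4 fell, and the difference was called in 63. IFIT1 was induced by 3.01 ± 0.091 in MAVS, and its change in DKO was 0.12 ± 0.17 (edgeR adjusted p = 0.728). CXCL8 was induced in both lines, by 3.11 ± 0.073 in MAVS and by 1.10 ± 0.073 in DKO (edgeR adjusted p = 5.11e-11), and the difference of -2.02 was itself called. Of 19 cytokines 17 were induced in MAVS and 8 in DKO.

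The ATF4 and amino acid genes mostly fell with the pulse in both lines. Over all tested genes 16.3% fell in MAVS and 8.22% in DKO. Of 33, 27 fell in MAVS and 22 in DKO, with median changes of -0.70 and -0.37, so the list fell less in DKO. Under DMSO 24 of 33 were lower in DKO, while after MPS1i 11 were lower and 8 higher. Those shares over all tested genes were 8.21%, 14.2% and 13.1%. By the test of the difference, the log2 effect of the pulse was higher (less negative or more positive) in DKO for 22 and lower for 5. Over all tested genes these shares were 4.97% and 6.41%. PSAT1, an enzyme of serine synthesis, was read under DMSO at 596 and 651 CPM in MAVS and at 336 and 353 CPM in DKO. After MPS1i it was read at 159 and 157 CPM in MAVS and at 208 and 196 CPM in DKO. The order of the lines was therefore reversed between the treatments, with no overlap in either, and both lines were lower after the pulse.

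The last comparison asked whether the STING-labelled difference depended on MAVS, by setting DKO minus MAVS beside STING minus SCR, all after MPS1i. The test of their difference called 709 genes (3.95%), 454 more negative without MAVS (2.53%) and 255 more positive (1.42%). Leaving out 1 library at a time brought this to between 446 and 550 genes. For 61 of the 65 interferon-stimulated genes the log2 difference was larger without MAVS, and the list medians were -1.12 with MAVS and -3.54 without. IFIT1 was read at 2090 and 2170 CPM in SCR and at 707 and 678 CPM in STING, so STING libraries kept levels that DKO libraries did not. After MPS1i IFIT1 was at 1010 and 951 CPM in MAVS and at 6.74 and 7.38 CPM in DKO. In CPM the gap was thus wider with MAVS. Under DMSO mean IFIT1 was 89.4 CPM in SCR and 14.2 CPM in STING, and 121.5 CPM in MAVS and 6.37 CPM in DKO. The test used levels after MPS1i and did not remove such differences. The difference of differences was -5.51 ± 0.15 for IFIT1 (edgeR adjusted p = 1.69e-11) and -5.39 ± 0.11 for MX1 (edgeR adjusted p = 1.73e-17).

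**Figure D4:**
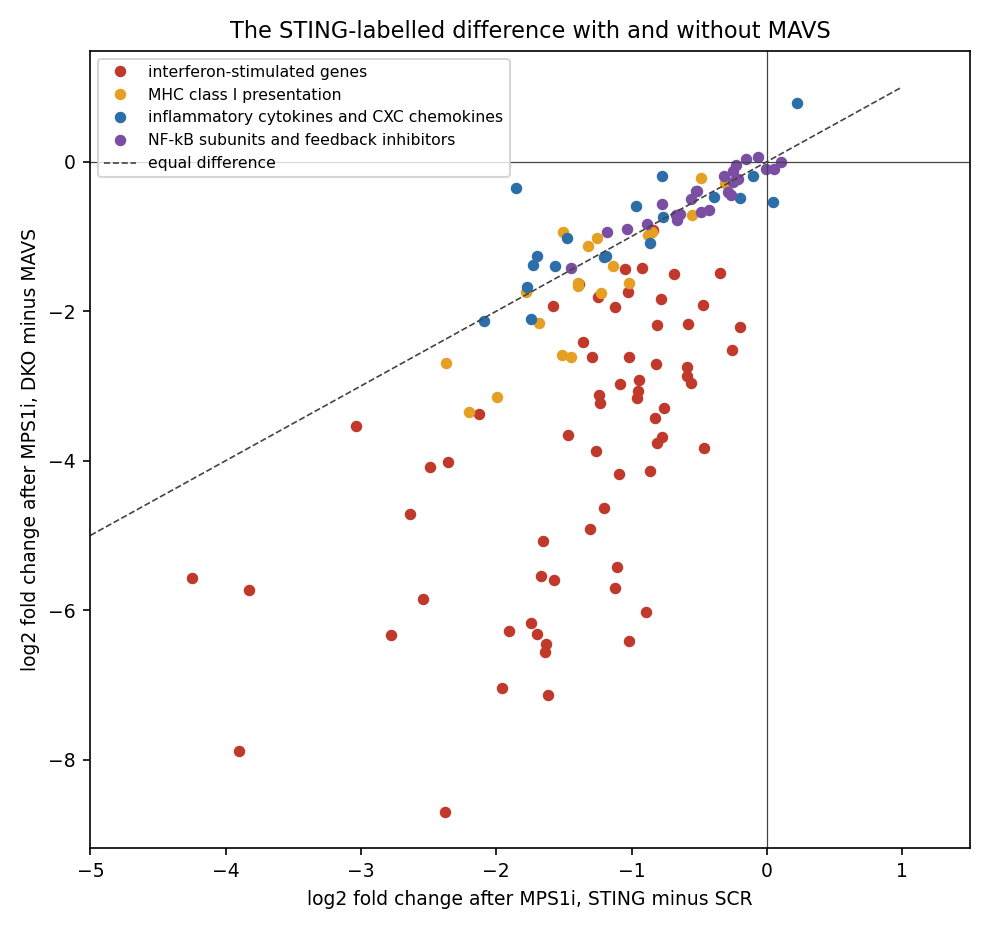
Log2 fold change after MPS1i of STING minus SCR (x axis) and of DKO minus MAVS (y axis) for the members of 4 lists, with a dashed line of equal difference. Interferon-stimulated genes fall below the line, with medians of -1.12 and -3.54, and cytokines and NF-kB genes lie near it, with medians of -1.19 and -1.03 and of -0.43 and -0.41.

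For inflammatory genes no such difference was called in most cases, which holds for most tested genes too. Of 19 cytokines 1 was called, in the positive direction, and 18 did not pass, against 3.95% called over all tested genes. CXCL8 was read at 194 and 204 CPM in SCR and at 58 and 58.4 CPM in STING, a difference of -1.77 against -1.68 without MAVS, and the difference between them was 0.09 ± 0.087 (edgeR adjusted p = 0.706). IL6 gave 0.17 ± 0.082, TNFAIP3 0.02 ± 0.078 and CD274 0.05 ± 0.17, none of them called. These values bound the differences but do not show that the genes behaved alike. Class I genes were in between, with 7 of 20 called more negative without MAVS and 1 more positive. B2M differed by -0.47 ± 0.068 (edgeR adjusted p = 4.2e-05), and HLA-B, at -0.32 ± 0.094, was not called (edgeR adjusted p = 0.0578).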

How the data were processed

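Poly(A)-enriched RNA of NCI-H1944 cells was sequenced, 2 libraries for each of 8 groups. The authors deposited 1 table of raw counts per gene for 60612 genes. The submitters' processing notes name Trim Galore, Trimmomatic, cutadapt, STAR and featureCounts with GRCh38; versions, the strand setting and the treatment of reads with several locations are not given in the sources used here. From the deposited counts, edgeR 4.0.16 (R 4.3.3) was run over all 16 libraries with 1 mean per group (8 residual degrees of freedom), TMM normalisation, a filter on low counts (minimum count 10, total 15), robust dispersions and two-sided quasi-likelihood tests. P-values were Benjamini-Hochberg adjusted within each of 6 contrasts at 0.05. SE is the log2 fold change divided by the root of F.

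The fit was tested on simulated data. Changes of 2-fold or more, planted in genes of at least 1 CPM, were mostly recovered. Smaller changes, which make up most of the calls, were not planted in those draws. The counts were drawn from the fitted model itself, so the draws do not test whether that model holds. With as many changed genes as in the main comparison the share of false calls stayed under the nominal level, and for the difference of the STING-labelled steps it lay close to that level. With far fewer changed genes it ran above it, so calls in a sparse contrast are somewhat lenient.

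Alternatives were DESeq2 1.42.0, other normalisations and filters, a fit of the compared groups alone, a replicate block and leaving out each library. Of 28 pairs of groups, 3 had same-numbered libraries that deviated together with an r over 0.1, all with DKO DMSO and the highest, 0.21, with MAVS DMSO; the lowest r was -0.16. The numbers were therefore not taken as pairing. Replicates differed by more than sampling noise, most of all in DKO DMSO. The chi-square per gene was 9.44 there, against 2.8 to 6.09 in the other groups. The DMSO comparison, the pulse in DKO and the test of pulse effects all use that pair. The members and gene lists were chosen with earlier results of these data known. Named genes were 22 fixed genes, the 12 largest differences each way among called genes of at least 1 CPM, the 6 largest each way in the tests of differences, and from every list the 4 called members of lowest adjusted p plus at most 4 called the other way; other list members named were chosen after their values were seen. Some genes under these rules are not reported here.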

Additional observations from a re-analysis of the deposited data

Results flagged for a closer look

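Some effects differed between lines by a test of the difference itself (edgeR quasi-likelihood interaction contrasts, adjusted p under 0.05), and these are given as values. The effect of the pulse differed between DKO and MAVS in 2043 genes, with DKO minus MAVS on the log2 scale in what follows. Of the sensing genes, STING1 differed by -1.09 and CGAS by -0.525. Of the interferon group, CCL5 differed by -1.58, TNFSF10 by -2.72, IFIT1 by -2.89, MX1 by -1.9, MX2 by -3.83, ISG15 by -1.86 and IRF1 by -1.39. The antigen presentation and checkpoint genes HLA-B, B2M and CD274 differed by -2.01, -1.57 and -2.18. The inflammatory genes CXCL8, IL6, TNFAIP3 and SOD2 differed by -2.02, -2.42, -1.4 and -0.887, and MKI67 by -0.303. Among the largest negative values were RP11-326C3.17 at -5.14, GRIP2 at -4.99, NEXN at -3.96, APOBEC3G at -3.68 and SERPING1 at -3.65. Except for NEXN, these genes had few counts in DKO after MPS1i, so their sizes are uncertain. The counts were 3 and 1 for RP11-326C3.17, 5 and 0 for GRIP2, 8 and 2 for APOBEC3G and 2 and 3 for SERPING1. The largest positive values were ACO1 at 1.99, ALDH1L2 at 1.6, SYTL1 at 1.54, CBS at 1.51, NME3 at 1.5 and ELAPOR1 at 1.49. The call of SERPING1 was lost with the replicate block (edgeR adjusted p = 0.0515), with the compared groups fitted alone (0.0871) and without either MAVS DMSO library, either MAVS MPS1i library, DKO DMSO replicate 2 or DKO MPS1i replicate 1. The calls of MX2, MKI67, GRIP2, SYTL1, NME3 and ELAPOR1 were each lost without at least 1 library.

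The STING-labelled step after the pulse differed without and with MAVS in 709 genes, given as without minus with. MX2 differed by -6.31, IFIT1 by -5.51, MX1 by -5.39, RP11-326C3.17 by -5.2, IFI44L by -5.13 and XAF1 by -5.08. The value of RP11-326C3.17 rests on 3 and 1 counts in the DKO libraries after MPS1i. IFNL1 had a fitted value of -4.89, which depends on the prior count because both DKO libraries were at 0. ISG15 differed by -3.42, CCL5 by -1.41, TNFSF10 by -1.4, B2M by -0.473, MAVS by -0.304 and SOD2 by -0.226. In the positive direction stood XXbac-B461K10.4 at 3.92, CTD-2270P14.2 at 2.05, AP000295.9 at 1.73, ALDH1L2 at 1.44, VANGL2 at 1.4 and NPTX1 at 1.36. The calls of IFNL1, SOD2, CTD-2270P14.2, ALDH1L2, VANGL2 and NPTX1 were each lost without at least 1 library.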

How the results depend on the processing

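The main comparison gave 4909 calls, 4100 with DESeq2, 4942 with the replicate block and 3349 to 3674 when 1 library was left out. Calls of at least 2-fold numbered 652, 654 with the replicate block and 508 to 608 with 1 library left out. Fitting the compared groups alone gave 1469 calls instead of 2897 under DMSO and 1629 instead of 2648 for the pulse in DKO; the cause was not tested. Leaving out 1 library gave 1761 to 2796 calls under DMSO, 446 to 550 for the difference of the STING-labelled steps, 1433 to 3120 for the pulse in DKO, 4446 to 4713 for the pulse in MAVS and 1434 to 2380 for the difference of pulse effects. The lowest counts came without MAVS DMSO replicate 1 (1761), SCR MPS1i replicate 2 (446) and DKO MPS1i replicate 1 (1433). The replicate block changed none of the other counts by over 1.5 times. All 65 interferon-stimulated genes were lower in every alternative run. Of 157 named genes, 133 kept direction and call after MPS1i in every alternative. Signs turned for uncalled MKI67 (0.0157 with upper quartile normalisation, -0.07479 to 0.01724 with 1 library left out) and ITGAM (0.04265 with upper quartile normalisation, 0.01294 with the replicate block, -0.2424 to 0.3014 with 1 library left out). For SERPING1 the difference of pulse effects ran from -4.405 to 0.4338, the latter without DKO DMSO replicate 2. Genes of a few counts, such as IFNB1, are limited by depth.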

Other observations

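Some groups outside the lists were chosen after their values were seen, and are given as description. Over all tested genes 14.2% were lower and 13.1% higher, but counts of groups so chosen are no test against these shares. Of 5 butyrophilin genes, whose products regulate T cells, 4 were lower in DKO after MPS1i, and BTN3A1 was the lowest at -1.64. Of 5 CEACAM adhesion genes 3 were lower, with CEACAM1 at -3.34 and CEACAM5 at -1.80. Of 5 tested APOBEC3 genes, which encode cytidine deaminases, 3 were lower and 1 higher, from APOBEC3G at -3.49 to APOBEC3C at 0.20 among those called. NT5E, which encodes CD73, was lower by -1.49.

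ACO1, the largest called rise among genes of at least 1 CPM, lies beside DDX58 on chromosome 9. The genes face each other on opposite strands, and 533 bases separate the end of ACO1 at 32454769 from the end of DDX58 at 32455302. Their levels moved in opposite directions: after MPS1i the MAVS libraries had ACO1 at 25.7 and 23.2 CPM with DDX58 at 732 and 712 CPM, and the DKO libraries had ACO1 at 144 and 135 CPM with DDX58 at 42.4 and 37.8 CPM. Of 7 iron genes, a set chosen after values were seen, 4 were higher, ACO1 included, and 1 was lower. Over all tested genes 13.1% were higher and 14.2% lower. Besides ACO1 the higher genes differed little, with TFRC, the transferrin receptor, at 0.42, FTL at 0.37 and SLC40A1 at 0.22. SLC11A2 was lower at -0.31, and IREB2, the other iron regulatory protein, was uncalled at -0.03.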
